A study of Mus musculus with 9 samples.

Results

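The transcription factors that keep the hepatocyte program running were followed through liver RNA of pair-fed and alcohol-fed mice: Hnf4a, its antisense long non-coding RNA (lncRNA) Hnf4aos, Foxa1, Foxa2, Foxa3, Cebpa, Cebpb and Onecut1. These 8 genes were picked by name, with their values in these libraries already known. Of 52151 entries in the gene table, 26345 hold a known transcript and a gene name. Of the 8 genes, 7 have a row of their name, in 9 rows, and Cebpb has none, so that its value comes from the entry that holds its only known transcript. The libraries came from livers of mice labelled as 8 weeks old. Behind the 3 pair-fed (PF) libraries are mice on an isocaloric control liquid diet, and behind the 3 alcohol-fed (AF) libraries mice on the Lieber-DeCarli diet, a liquid diet in which alcohol supplies part of the calories, both for 5 weeks. For the last 3 libraries (AF_MNA), mice received the Lieber-DeCarli diet, also for 5 weeks, and intraperitoneal injections of MNA at a dose of 50 mg/kg. MNA is an abbreviation left unexplained in the labels. The strain label is C57BL/6 in PF and AF and C57BL/7, C57BL/8 and C57BL/9 in AF_MNA replicates 1, 2 and 3. The methods describe the PF and AF mice as male and as fasted before the end, no genetic change is named for any group, and nothing says how many animals stand behind a library. Levels are FPKM, fragments scaled to transcript length and to the library's total, from 1 library per replicate.

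HNF4A is a nuclear receptor that binds the promoters of a large share of hepatocyte genes, among them those for apolipoproteins, clotting factors and bile acid enzymes. The FOXA proteins are pioneer factors that open chromatin for other factors, C/EBP alpha and C/EBP beta are leucine zipper factors of metabolic and acute-phase genes, and Onecut1 (HNF6) acts in hepatocytes and bile duct cells. These factors bind one another's promoters, and in the adult liver Hnf4a is transcribed from its downstream promoter P1, while the upstream promoter P2 serves mainly other tissues and the fetal liver.

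On the mouse build GRCm38, Hnf4a lies on the plus strand at chr2:163506808-163572910 and Hnf4aos on the minus strand at chr2:163493807-163541720. The start of Hnf4aos is 5468 bases upstream of the start of the Hnf4a P1 transcript and 34912 bases downstream of the P2 start, inside the first intron of the P2 transcript. No exon base of Hnf4aos lies on an exon base of Hnf4a. In the entry of Hnf4a in the gene table, 4 of 11 transcripts are known and the other 7 were assembled by the authors. None of the 4 is the transcript from P2. The promoter windows of both Hnf4a starts and of Hnf4aos are shown because the locus carries the contrast between sense and antisense levels described below. They run from 250 bases before to 50 bases after each RefSeq start, 5′ to 3′ on the gene's own strand (RefSeq, GRCm38.p6). Capitals mark matches on either strand to short motif words: AATCAAT, the complement of the Onecut word ATTGATT, in P2, the complement of the HNF1 word GTTAATNNT in P1, and the HNF4 word CAAAGTCC in the Hnf4aos promoter.
Hnf4a P2, chr2:163506607-163506906, plus strand: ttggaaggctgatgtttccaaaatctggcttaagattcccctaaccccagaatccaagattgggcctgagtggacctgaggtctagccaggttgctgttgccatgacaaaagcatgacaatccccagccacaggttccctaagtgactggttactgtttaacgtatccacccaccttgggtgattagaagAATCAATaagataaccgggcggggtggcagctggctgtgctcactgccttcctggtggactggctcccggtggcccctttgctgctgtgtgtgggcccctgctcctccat
Hnf4a P1, chr2:163546905-163547204, plus strand: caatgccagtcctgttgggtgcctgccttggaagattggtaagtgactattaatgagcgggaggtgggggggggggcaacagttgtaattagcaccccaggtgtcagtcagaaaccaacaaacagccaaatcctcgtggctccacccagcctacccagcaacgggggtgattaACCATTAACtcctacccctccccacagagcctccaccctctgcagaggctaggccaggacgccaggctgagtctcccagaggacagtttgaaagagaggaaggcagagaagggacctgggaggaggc
Hnf4aos, chr2:163541672-163541971, minus strand: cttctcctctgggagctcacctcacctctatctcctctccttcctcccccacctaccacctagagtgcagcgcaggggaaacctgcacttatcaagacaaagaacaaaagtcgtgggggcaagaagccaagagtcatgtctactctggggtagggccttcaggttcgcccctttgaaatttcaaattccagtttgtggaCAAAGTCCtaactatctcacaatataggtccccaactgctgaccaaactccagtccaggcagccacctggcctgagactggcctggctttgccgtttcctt

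The HNF4 word stands 51 to 44 bases before the Hnf4aos start, the Onecut word 60 to 54 bases before the P2 start and the HNF1 word 77 to 69 bases before the P1 start. Of 32851 promoters in the RefSeq table, 1.42% hold the HNF4 word, 2.86% the Onecut word and 2.57% the HNF1 word on either strand. The FOXA words TGTTTAC and TGTTTGC were found in 8.48% of promoters, among them that of Foxa1. The C/EBP words TTGCGCAA, TTGCGTAA and TTGCACAA were found in 1.36%, none of them of these genes. Of the 3 Foxa2 promoters, 1 holds the HNF1 word and another the Onecut word. In all, 6 of the 11 promoters of the 8 genes hold at least 1 word, against 15.5% of all promoters. The words do not overlap one another, and a match is a description of the letters only.

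Hnf4aos reached the lncRNA table as a pair of transcripts. ENSMUST00000141329 has 4 exons and 839 bases, and ENSMUST00000125811 has 3 exons and 370 bases. They share 255 bases in the first exon and in the exon of 65 bases. The first exon, the exon only ENSMUST00000141329 has and the last exon of ENSMUST00000125811 are shown because they tell the transcripts apart, with capitals for bases that the other transcript of this pair lacks. The last exon of ENSMUST00000141329, of 352 bases at chr2:163493807-163494158, is not in ENSMUST00000125811 either. The annotation has another Hnf4aos transcript, ENSMUST00000128896, that is not in the table and shares the first and last exons of ENSMUST00000141329.
ENSMUST00000141329 exon 1, chr2:163541503-163541720, minus strand: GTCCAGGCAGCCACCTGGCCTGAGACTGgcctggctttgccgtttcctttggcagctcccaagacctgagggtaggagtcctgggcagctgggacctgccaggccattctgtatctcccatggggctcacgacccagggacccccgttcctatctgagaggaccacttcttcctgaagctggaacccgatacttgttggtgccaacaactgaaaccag
ENSMUST00000141329 exon 2, chr2:163496735-163496938, minus strand: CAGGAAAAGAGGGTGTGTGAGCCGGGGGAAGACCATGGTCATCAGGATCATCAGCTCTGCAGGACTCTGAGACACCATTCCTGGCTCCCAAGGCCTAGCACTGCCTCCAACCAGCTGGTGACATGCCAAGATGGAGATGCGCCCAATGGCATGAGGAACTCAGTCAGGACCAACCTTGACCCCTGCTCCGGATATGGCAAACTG
ENSMUST00000125811 exon 3, chr2:163494194-163494308, minus strand: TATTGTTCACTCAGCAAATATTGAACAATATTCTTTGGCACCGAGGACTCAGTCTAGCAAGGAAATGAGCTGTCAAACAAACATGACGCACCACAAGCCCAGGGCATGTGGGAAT

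**Figure D1:**
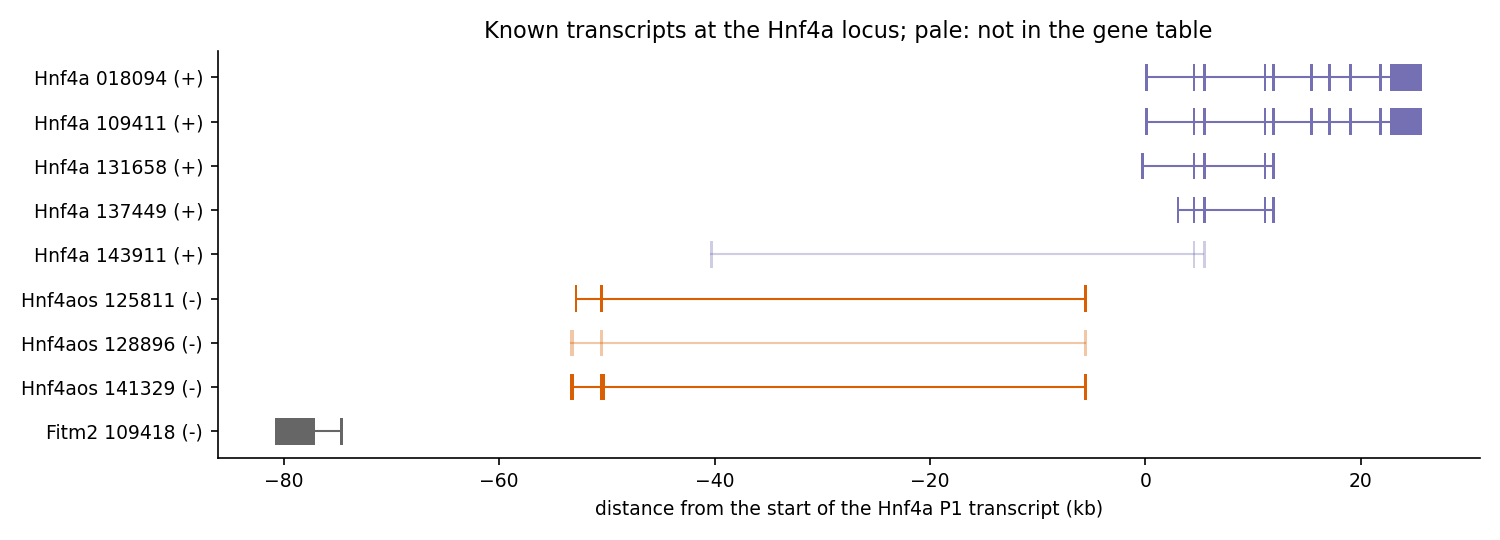
Known transcripts at the Hnf4a locus, with distance from the start of the Hnf4a P1 transcript in kb on the horizontal axis, exons as blocks (the narrowest drawn at a minimum width) and the last digits of each transcript's identifier and its strand on the left. Pale models are not in the gene table. Hnf4aos starts 5468 bases upstream of the P1 start, and Fitm2, which shares its gene-table entry, starts 21178 bases beyond the Hnf4aos end.

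The coverage that 1 FPKM stands for, which follows depth, ran from 5.84 in AF_MNA replicate 3 to 8.3 in AF_MNA replicate 1, and back-splice junction reads ran from 1588 to 2545 in the same libraries. AF replicate 3 and AF_MNA replicate 1 stood apart in transcripts assembled inside introns, whose FPKM summed to 9433 and 8934 against 2477 to 4937 in the other libraries. Hepatocyte markers marked every library: the 7 of 8 with an entry, Alb and Ttr among them, summed to between 15732 and 22796 FPKM in the 9 libraries. The spread between 3 libraries per group is the only measure of error, and in bulk liver fewer cells of a type cannot be told apart from less RNA per cell.

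Over the 9 libraries, Cebpa had the highest mean level, 79.2 FPKM, above 97.6% of the 12252 genes that averaged 0.5 FPKM or more. Hnf4a followed at 52.7 FPKM, above 96.6% of them, and the ranges of both genes overlapped. The entry named Hnf4aos stood at 9.49 FPKM and Foxa3 at 6.85 FPKM, again with overlapping ranges, and every library of Hnf4a was above every library of these entries. The remaining genes lay close together: Onecut1 at 3.09 FPKM, the Cebpb entry at 2.62, Foxa2 at 2.6 and Foxa1 at 2.24, with ranges that overlapped throughout. Cebpa, Hnf4a and Foxa3 are the members of their families most tied to adult hepatocytes.

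**Figure D2:**
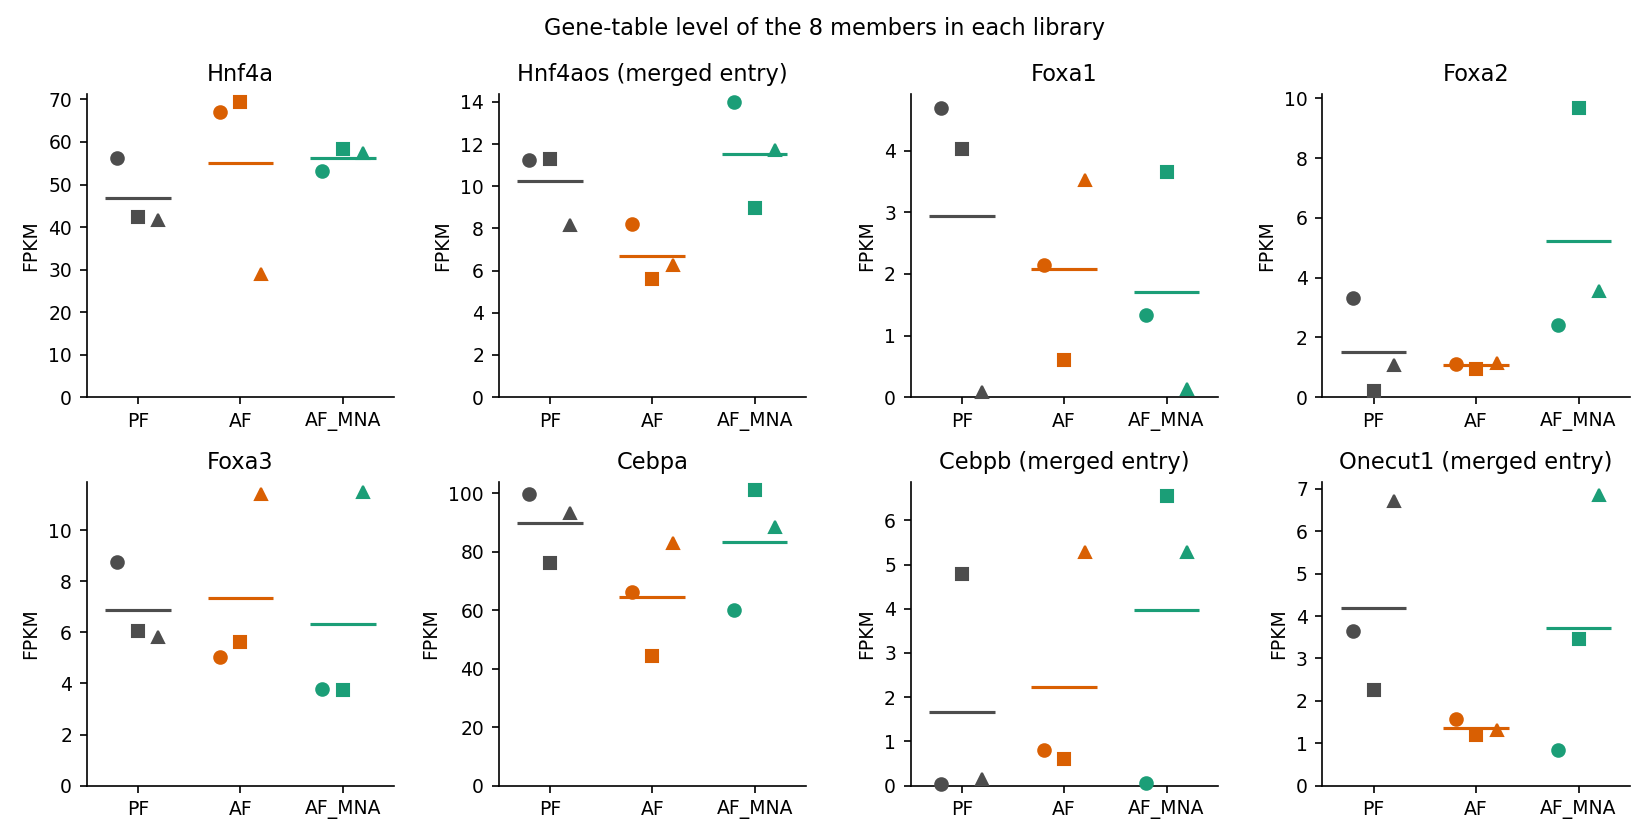
FPKM of the 8 genes by library, with groups on the horizontal axis, circles, squares and triangles for replicates 1, 2 and 3 and lines for group means. Onecut1 lies between 1.19 and 1.58 FPKM in AF and at 2.25 or above in PF, while Foxa1 and the Cebpb entry range from near 0 to 4.7 and 6.54 FPKM within groups.

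Hnf4a, the nuclear receptor at the centre of the network, read 56.3, 42.3 and 41.6 FPKM in PF replicates 1 to 3. In AF it read 67.0, 69.4 and 29.1 FPKM, and in AF_MNA 53.2, 58.3 and 57.3 FPKM. AF thus held both the highest and the lowest library, and every pair of groups overlapped. Group means were 46.7 ± 8.3 (SD, n = 3) in PF, 55.1 ± 22.6 in AF and 56.3 ± 2.71 in AF_MNA. The log2 ratio of means was 0.24 for AF against PF, from 0.04 to 0.54 when 1 library at a time was left out, and 0.03 for AF_MNA against AF, from -0.28 to 0.23, or -0.01 with each library scaled to the same median. AF replicate 3, the low library, was also the one with the highest sum of intron transcripts, and the part of that in the result was not tested.

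The gene-table entry named Hnf4aos is a merged one. Of its 5 transcripts, 2 are of Hnf4aos, 2 were assembled by the authors, and 1 is the coding transcript of Fitm2, a gene of lipid droplet formation whose start is 21178 bases beyond the end of Hnf4aos. Fitm2 has no entry of its own, and its transcript supplies 3967 of the 4921 known exon bases of the entry, which is 80.6%. The entry read 11.2, 11.3 and 8.17 FPKM in PF, 8.22, 5.6 and 6.27 FPKM in AF, and 14.0, 8.96 and 11.7 FPKM in AF_MNA. AF was the lowest group, overlapping PF by a single library, and all 3 AF_MNA libraries were above all AF libraries. The log2 ratio was -0.61 for AF against PF and 0.79 for AF_MNA against AF, a ratio of means of 1.72.

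The transcripts of Hnf4aos themselves ran the other way. ENSMUST00000141329 read 1.96, 6.78 and 6.44 FPKM in PF, 12.3, 4.04 and 10.2 FPKM in AF, and 4.5, 2.79 and 3.57 FPKM in AF_MNA. ENSMUST00000125811 read 0.23, 0.84 and 1.37 FPKM in PF, 2.95, 0.71 and 1.39 FPKM in AF, and 0.55, 0.4 and 0.27 FPKM in AF_MNA. The longer transcript carried most of the signal in every library, with 6.93% to 19.4% of the sum in the shorter one. Summed, they read 2.19, 7.63 and 7.81 FPKM in PF, 15.2, 4.75 and 11.6 FPKM in AF, and 5.05, 3.19 and 3.83 FPKM in AF_MNA. The highest libraries were AF replicates 1 and 3, PF replicate 1 was the lowest of all, and AF_MNA overlapped both other groups. The log2 ratio of the summed transcripts was 0.84 for AF against PF, from 0.44 to 1.19 on leaving out each library, opposite in sign to that of the entry. For AF_MNA against AF it was -1.38, from -1.73 to -1.02, and for AF_MNA against PF -0.55, from -0.94 to -0.29, where the entry gave 0.79 and 0.18. Only the shorter transcript separated a pair of groups, with every AF_MNA library below every AF library, as 4.84% of the 19752 lncRNA transcripts tested did in either direction. No Hnf4aos transcript separated AF from PF, where 6.23% of 18310 lncRNA transcripts did.

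Since a gene value in this table is the length-weighted sum of its transcripts over the exon bases of the entry, the most that the Hnf4aos transcripts can supply to their entry follows from the files. That bound was 3.13%, 10.8% and 14.7% in the PF libraries, 28.1%, 13.3% and 29.3% in AF, and 5.78%, 5.65% and 5.37% in AF_MNA. In every library most of the entry's signal therefore came from the Fitm2 or the assembled transcripts. Relative to Hnf4a, the sum of the transcripts was 3.89%, 18.0% and 18.8% for PF, 22.7%, 6.85% and 39.8% for AF, and 9.49%, 5.48% and 6.69% for AF_MNA. Hnf4a is the divisor of these shares, so its own spread enters them.

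**Figure D3:**
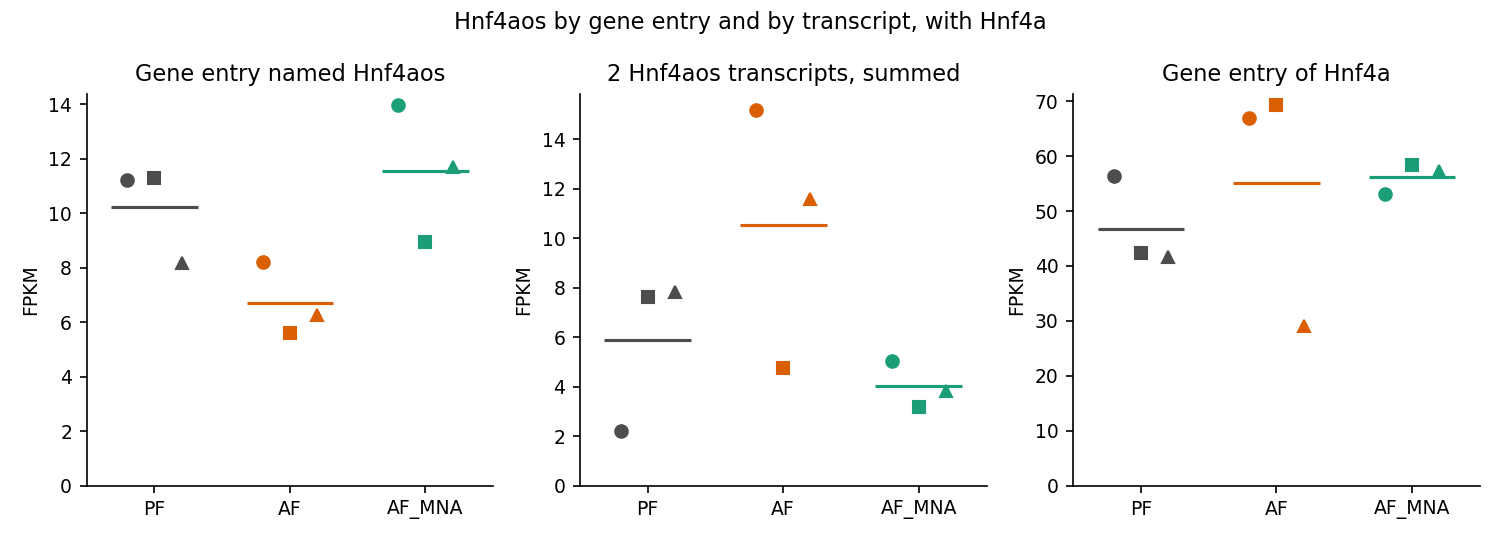
FPKM by library of the gene entry named Hnf4aos, of the sum of its 2 transcripts and of the Hnf4a entry, with groups on the horizontal axis, symbols for replicates 1 to 3 and lines for group means. AF is the lowest group in the entry at a mean of 6.7 FPKM and the highest in the summed transcripts at 10.5 FPKM.

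Foxa1 (chr12:57540628-57546916, minus strand), a pioneer factor also found in other endoderm organs, read 4.7, 4.03 and 0.09 FPKM in PF, 2.14, 0.6 and 3.52 FPKM in AF, and 1.34, 3.65 and 0.13 FPKM in AF_MNA. Each group held a library under 1 FPKM, and its highest library was 52.2 times its lowest. The standard deviation of log2(FPKM + 1) within groups was 1.06, larger than in 98.3% of all genes and in 98.8% of the 500 genes nearest in level. Of 9840 genes with a median of at least 1 FPKM, 366 (3.72%) had a library under 0.1 of that median, as Foxa1 did in PF replicate 3 and AF_MNA replicate 3. The table gives no counts, so these near-zero values are given as listed.

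Foxa2 (chr2:148042877-148046969, minus strand), the pioneer factor tied to fasting and bile acid metabolism, read 3.31, 0.21 and 1.06 FPKM in PF, 1.11, 0.93 and 1.15 FPKM in AF, and 2.42, 9.69 and 3.56 FPKM in AF_MNA. The AF libraries lay within a narrow range, and each AF_MNA library was above all of them, with AF_MNA replicate 2 the highest of the 9. Means were 1.06 ± 0.117 (SD, n = 3) in AF and 5.22 ± 3.91 in AF_MNA, a 4.91-fold ratio and a log2 ratio of 2.3. Without AF_MNA replicate 2 it was 1.49. Against PF, AF_MNA overlapped through PF replicate 1, and the log2 ratio was 1.77, from 0.97 without AF_MNA replicate 2 to 3.04 without PF replicate 1. AF against PF gave -0.52, which became 0.74 without PF replicate 1.

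Foxa3 (chr7:19013284-19023538, minus strand), the highest of the FOXA genes in mean FPKM over the 9 libraries and a factor of glucose metabolism genes, read 8.75, 6.04 and 5.83 FPKM in PF, 5.03, 5.62 and 11.4 FPKM in AF, and 3.78, 3.74 and 11.5 FPKM in AF_MNA. AF replicate 3 and AF_MNA replicate 3 were the highest, and all groups overlapped. The log2 ratio was 0.1 for AF against PF and -0.21 for AF_MNA against AF, and both changed sign on leaving out a library. A further entry of this name, made only of assembled transcripts, ran from 0 to 2.02 FPKM.

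Cebpa (chr7:35119293-35121928, plus strand), a factor of energy metabolism and of the quiescent hepatocyte, read 99.9, 76.2 and 93.4 FPKM in PF, 66.3, 44.4 and 83.2 FPKM in AF, and 60.3, 101 and 88.5 FPKM in AF_MNA. AF held the lowest library and PF 2 of the highest 3, but AF replicate 3 was above PF replicate 2. Means were 89.8 ± 12.3 (SD, n = 3) in PF, 64.6 ± 19.5 in AF and 83.3 ± 20.9 in AF_MNA. The log2 ratio was -0.48 for AF against PF, between -0.7 and -0.27 on leaving out each library, and 0.37 for AF_MNA against AF, between 0.16 and 0.59. Its within-group standard deviation, 0.361 on the log2 scale, exceeded that of 79.7% of genes. An entry of the same name made only of assembled transcripts read 1.83 FPKM in AF_MNA replicate 1 and was listed at 0 elsewhere.

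Cebpb, which rises in the acute-phase response and in regenerating liver, is a gene of 1 exon at chr2:167688915-167690418 on the plus strand. Its transcript sits in an entry named A530013C23Rik after the lncRNA gene that starts 759 bases beyond its end, together with 2 transcripts of that lncRNA and 1 assembled transcript. The entry read 0.03, 4.79 and 0.15 FPKM in PF, 0.8, 0.61 and 5.29 FPKM in AF, and 0.07, 6.54 and 5.29 FPKM in AF_MNA. Every library was either under 1 FPKM or at 4.79 FPKM and above, each group held both kinds, and all groups overlapped. In the libraries above 0.5 FPKM, the known lncRNA transcripts could supply from 0.13% to 13.27% of the entry. In PF replicate 1 and AF_MNA replicate 1, at 0.03 and 0.07 FPKM, their bound was 137.49% and 130.79%, so these values may hold no Cebpb, and they are levels of the entry only. Its within-group standard deviation of 1.36 exceeded that of 99.1% of genes, the widest among the 8. Leaving out 1 library moved its log2 ratio for AF against PF, 0.43, to between -1.23 and 4.63.

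Onecut1 (chr9:74861921-74891781, plus strand), the factor of hepatocyte and bile duct differentiation, read 3.64, 2.25 and 6.71 FPKM in PF, 1.58, 1.19 and 1.31 FPKM in AF, and 0.85, 3.45 and 6.86 FPKM in AF_MNA. Every AF library was below every PF library, while AF_MNA held the lowest and the highest of the 9. Means were 4.2 ± 2.28 (SD, n = 3) in PF and 1.36 ± 0.2 in AF, a 3.09-fold lower mean and a log2 ratio of -1.63, from -1.93 to -1.11 on leaving out each library. AF_MNA, at 3.72 ± 3.01, overlapped both groups, with a log2 ratio of 1.45 against AF that became 0.66 without AF_MNA replicate 3. The entry also holds 6 lncRNA transcripts of Gm16551 and Gm20649 and 1 assembled transcript, whose share was not computed. The 6 could supply at most 53.18% of the entry in PF replicate 1, where the Gm20649 transcript ENSMUST00000160950 read 4.23 FPKM, and 11.85% to 28.94% in the other libraries. The part of these transcripts in the difference between AF and PF was not tested.

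**Figure D4:**
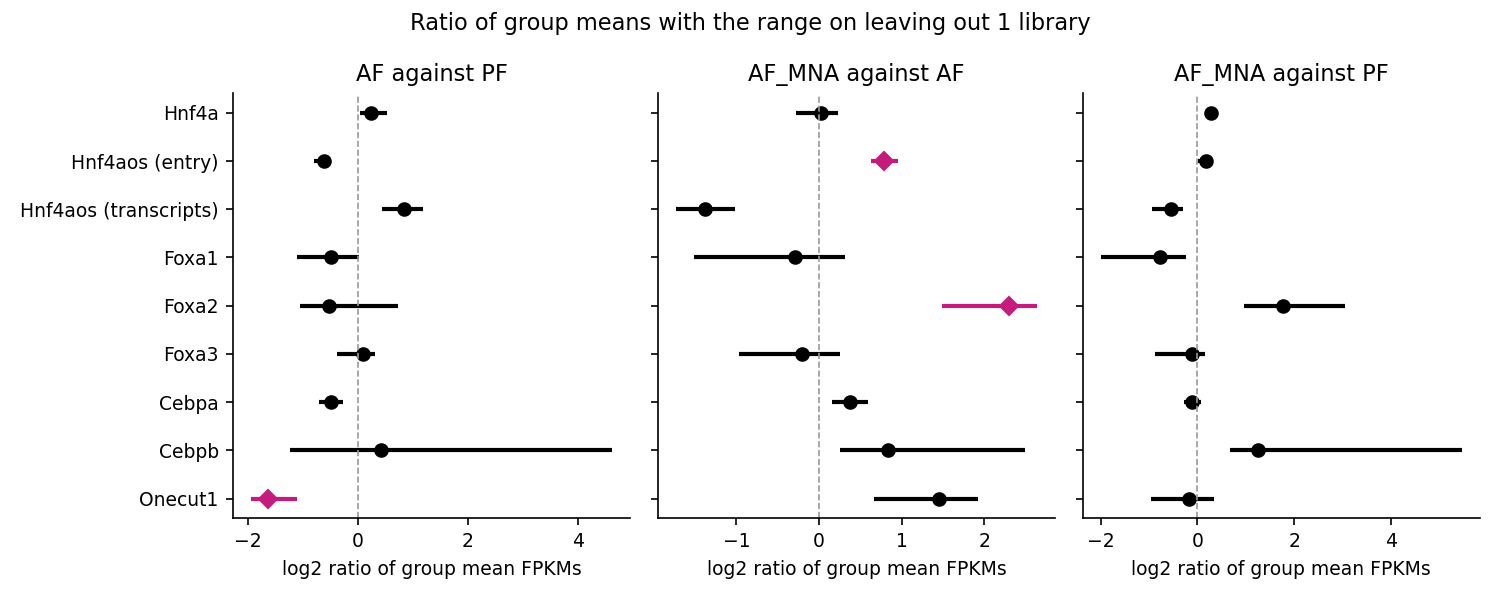
Log2 ratio of group mean FPKMs for each gene in the 3 comparisons, with bars for the range when 1 library at a time is left out, a dashed line at no difference, and diamonds where the libraries of the groups do not overlap. The horizontal axes differ between panels. The summed Hnf4aos transcripts lie at 0.84, -1.38 and -0.55 and the Hnf4aos entry at -0.61, 0.79 and 0.18.

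Across the 8 genes, the libraries of AF and PF did not overlap for 1, Onecut1, against 18.3% of all 12268 genes tested. AF_MNA and AF did not overlap for 2, the Hnf4aos entry and Foxa2, both higher in AF_MNA, against 10.1% of 12214 genes. AF_MNA and PF overlapped for all 8, while 21.4% of 12276 genes did not. The genes were chosen from these same values, so nothing is read from their counts beside these shares. AF_MNA against AF and AF against PF share the AF libraries, so that a low AF library moves both in opposite directions.

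For each gene the 3 genes nearest to it in pattern were taken, by the root mean square difference of standardized log2(FPKM + 1) over the 9 libraries, where 0 is an identical pattern. For Hnf4a they were Sema6b (0.313), Iqgap1 (0.368) and Hspb8 (0.401), and Hspb8, a small heat shock protein, read 130.92 FPKM in AF replicate 2 and 8.64 in AF replicate 3. For the Hnf4aos entry they were Gtf2h3, Rnf14 and Apoc4. Foxa2 was nearest to Kit (0.333), Bin2 (0.347) and Plvap (0.362), the last a marker of fenestrated endothelium that read 16.07 and 15.32 FPKM in AF_MNA replicates 2 and 3. Cebpa was nearest to Gm20949 (0.23), Trmt1l and Depdc7, and Onecut1 to Gm21049 (0.235), Itsn1 and Gm42836. Foxa1 was nearest to Polr2i, Tmem126b and Mvk, Foxa3 to Fam192a, Hist1h4d and Gm13380, and the Cebpb entry to Gm7153, Siah2 and Ripply3. None of these genes lies within 20 kb of the gene it resembles.

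Markers of other liver cells were read beside Onecut1 and Foxa2. The summed FPKM of the 7 bile duct markers, of which only Sox9 and Spp1 were high enough to test, ranged over 3.31 to 4.36 for PF, 4.87 to 9.13 for AF and 3.37 to 6.38 for AF_MNA. Spp1 was higher in every AF library than in every PF library, at 2.09 to 2.97 FPKM in PF and 3.39 to 6.66 in AF. So was Sox9, at 0.68 to 0.92 FPKM in PF and 0.94 to 1.39 in AF (log2 ratio 0.54). Without Spp1 the sums of PF and AF overlapped, at 1.22 to 1.39 and 1.33 to 2.47 FPKM. The sum of the 6 endothelial markers ranged over 21.9 to 28.7 for PF, 28.6 to 41.0 for AF and 35.1 to 41.3 for AF_MNA. Every AF_MNA library was above every PF library, also without Clec4g (24.6 to 30.4 against 14.3 to 21.2), while AF overlapped both groups. Pecam1 (log2 ratio 0.5) was higher in every AF library than in every PF library, and the other endothelial markers overlapped. For AF_MNA against PF, Clec4g, Pecam1, Kdr and Oit3 were higher in every library, while Stab2 and Lyve1 overlapped. The sums of the 6 stellate markers and of the 6 Kupffer cell markers with an entry overlapped between all groups, while some single markers did not. Of the stellate markers, Des (log2 ratio 0.93) and Col1a1 (0.87) were higher in every AF library than in every PF library, while Reln (-0.56), Rgs5 (-0.26), Lrat (0.19) and Dcn (0.1) overlapped. Of the Kupffer cell markers, Vsig4 (-0.52) was lower in every AF library and the macrophage receptor Marco (1.25, limma adjusted p = 0.365) higher, while Clec4f (-0.64), Adgre1 (-0.23), Cd5l (0.05) and C1qa (0.39) overlapped. The sum of the 4 neutrophil markers ranged over 0.18 to 0.77 FPKM for PF, 0.78 to 2.13 for AF and 0.28 to 0.74 for AF_MNA, so that AF was above both other groups at these low levels, but not without S100a8, where the sums overlapped. The part of these cells in the levels of the factors was not tested.

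Around the 8 genes, 29 lncRNA transcripts other than Hnf4aos overlapped a gene or lay within 20 kb of it, 17 known and 12 assembled. They were 10 at Onecut1, 6 each at Foxa1 and Foxa3, 3 each at Cebpa and Cebpb and 1 at Foxa2. Called means here a limma p under 0.05 before adjustment and group means that differ by more than 1 on the log2 scale, the study's own threshold. For AF against PF, 0 of 21 tested were called, against 2.47% of all lncRNA transcripts. None of the 21 had an unadjusted limma p under 0.05, against 2.62% of all lncRNA transcripts. For AF_MNA against AF, 1 of 22 was called, against 1.75%, and it was MSTRG.45111.1, an assembled transcript of 1 exon inside Onecut1 at chr9:74876106-74878143. It read 13.8, 0.956 and 1.63 FPKM in PF, 0.979, 0.886 and 1.04 FPKM in AF, and 1.83, 2.95 and 6.4 FPKM in AF_MNA, with a log2 ratio of 1.95 and a limma adjusted p of 0.591. The AF_MNA libraries were all above the AF libraries, and PF replicate 1 was above every other library. The next by level were MSTRG.45108.1 (a mean of 1.17 FPKM over the 9 libraries) and the Gm16551 transcript ENSMUST00000160979 (1.14) beside Onecut1, MSTRG.9753.1 (0.719) and the Gm37291 transcript ENSMUST00000195637 (0.532) near Foxa1, and the Gm45091 transcript ENSMUST00000205799 (0.516), antisense to the start of Cebpa. None of the 8 genes had a back-splice junction read, the mark of a circular RNA, among 17959 such reads of 4486 circRNAs in the 9 libraries, and a count of 0 allows a share of up to 0.0167%, for counting error only.

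The wider network was read from 5 lists of named genes. Onecut2, Onecut3 and Cyp8b1 had no entry, and 12 further genes lay in entries of other names and were not read. Of the 12268 genes tested for AF against PF, 527 (4.3%) were called, 239 higher (1.95%) and 288 lower (2.35%), and 40 had an adjusted p under 0.05. Among 9 tested relatives of the factors, 0 were called, and none had an unadjusted limma p under 0.05, against 11.7% of all genes. The most abundant were the forkhead genes Foxo3 (log2 ratio -0.24), Foxo1 (0.33) and Foxk1 (-0.03), and the median of the list was -0.03. Of 22 other liver transcription factors tested, 1 was called, Zbtb20, a repressor that silences alpha-fetoprotein after birth. It read 6.18, 3.94 and 6.28 FPKM in PF against 2.47, 2.7 and 2.43 in AF, without overlap, a log2 ratio of -1.11 with an adjusted p of 0.147. Without PF replicate 3 it was -1.0, no longer past the fold threshold, and the call was lost. The median log2 ratio of this list was -0.14 against -0.03 over all genes. The most abundant of the list, Creb3l3 (0.07) and Rxra (-0.19), were not called.

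Known targets of HNF4A, 20 of them tested, gave 1 call in each direction. Cyp7a1, the rate-limiting enzyme of bile acid synthesis, read 24.5, 65.9 and 26.0 FPKM in PF against 10.1, 1.13 and 4.94 in AF, a log2 ratio of -2.85 (adjusted p = 0.198), with all AF libraries lower. Apoa4, an apolipoprotein that rises with liver fat, read 63.1, 71.6 and 47.3 FPKM in PF against 194, 89.9 and 107 in AF, a log2 ratio of 1.1 (adjusted p = 0.313), with all AF libraries higher. This call was lost without PF replicate 3 (0.95), without AF replicate 1 (0.7) and with all 9 libraries in the fit. The abundant targets Ttr (-0.64), Apob (-0.09) and Apoh (0.13) were not called, and the median of the list was 0.04. Neither call passed the adjustment over all genes.

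Of 18 tested targets of FOXA, C/EBP and Onecut factors, 1 was called higher and 2 lower. Tat, the tyrosine-degrading enzyme induced by fasting and glucocorticoids, read 115, 241 and 137 FPKM in PF against 387, 581 and 197 in AF, overlapping between groups, a log2 ratio of 1.24 (adjusted p = 0.393). The call was lost without any 1 of 4 libraries, PF replicates 1 and 3 and AF replicates 1 and 2. Serpina1e, a member of the alpha-1-antitrypsin cluster whose near-identical copies can share reads, read 2319, 4221 and 1520 FPKM in PF against 149, 568 and 185 in AF, a log2 ratio of -3.16 (adjusted p = 0.11). Its neighbours Serpina1a (-0.26) and Serpina1c (-0.31) were lower in every AF library than in every PF library but were not called, nor was Serpina1d (0.19), whose entry holds 2 coding genes and whose groups overlapped. Alb, at a mean of 14888 FPKM, had a log2 ratio of -0.06, and Cyp7a1 was on this list too. The median of the list was 0.06.

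Acute-phase genes, targets of C/EBP beta, gave 2 calls higher and 1 lower among 17 tested. Apcs, serum amyloid P, read 104, 43.1 and 43.2 FPKM in PF, 0.05, 0.48 and 0 FPKM in AF, and 34.2, 19.3 and 0.06 FPKM in AF_MNA. AF was far below PF in every library and AF_MNA replicate 3 was as low as AF. Its log2 ratio for AF against PF was -8.49 with a limma adjusted p of 0.00397, the only gene of the lists under 0.05 after adjustment, and since AF replicate 3 was listed at 0 the ratio has no firm size. Lbp, which binds bacterial lipopolysaccharide, read 25.5, 15.8 and 13.6 FPKM in PF against 42.0, 57.0 and 31.4 in AF, a log2 ratio of 1.25 (adjusted p = 0.211). Hamp, the iron hormone hepcidin, whose entry holds 2 coding genes, gave 1.04 with overlapping groups, and its call was lost without any 1 of 5 libraries, without the filter on low values and with a replicate block. The abundant Hpx (0.06), Fgg (0.36) and Fgb (0.27) were not called, and the list's median was 0.27.

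**Figure D5:**
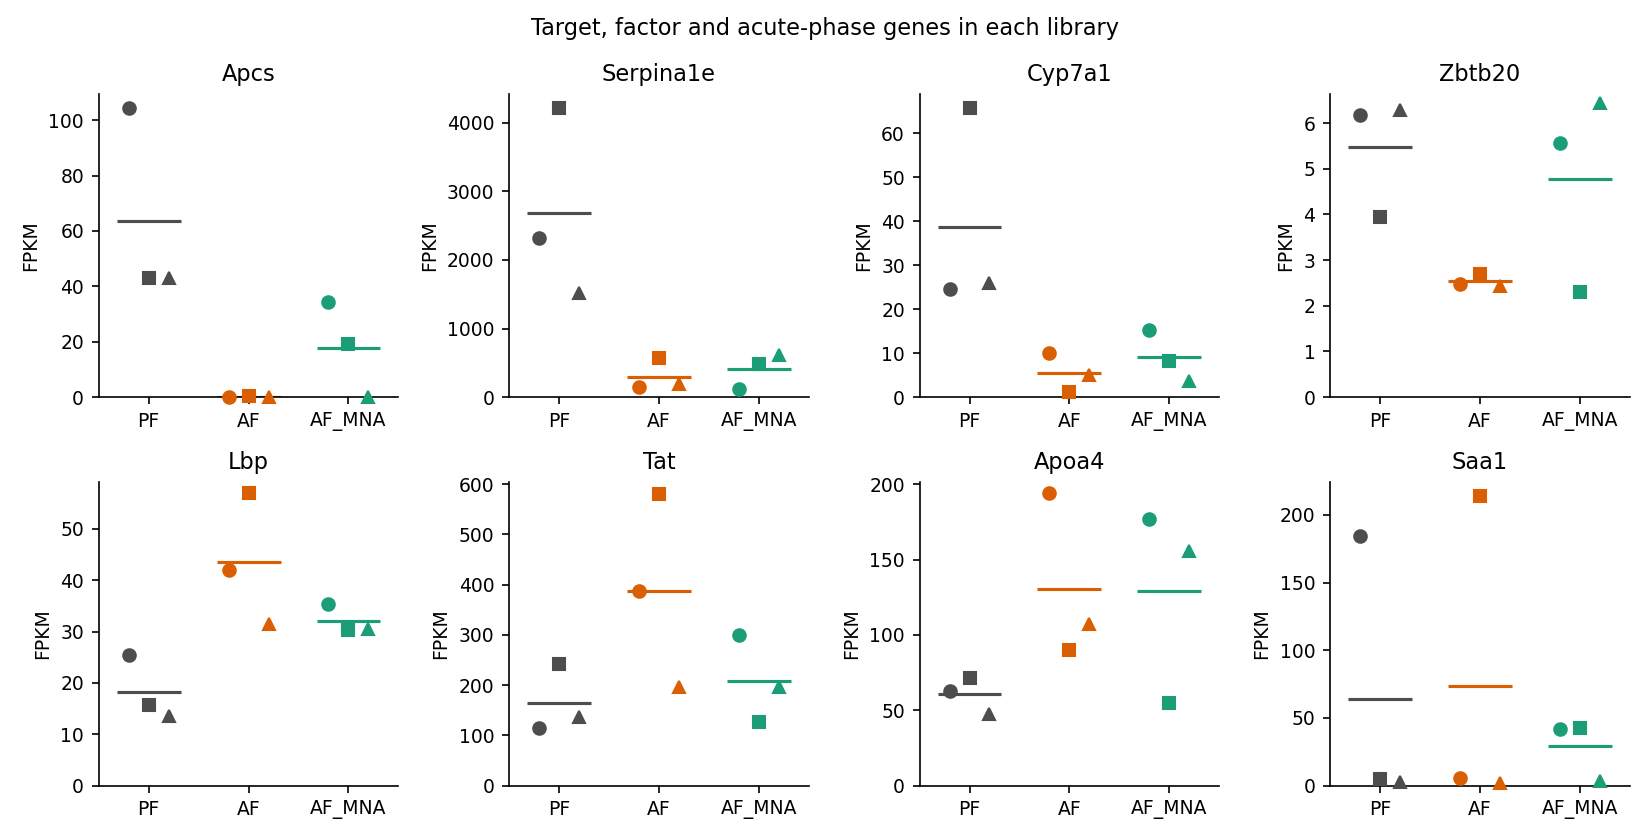
FPKM by library of 8 genes of the lists, with groups on the horizontal axis, symbols for replicates 1 to 3 and lines for group means. Apcs, Serpina1e, Cyp7a1 and Zbtb20 lie lower in every AF library than in every PF library, Lbp and Apoa4 higher, and Saa1 is highest in AF replicate 2 and PF replicate 1.

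For AF_MNA against AF, 242 of 12214 genes (1.98%) were called, and 0 genes of these lists. At an unadjusted limma p under 0.05 stood 1 of the 22 other liver factors, against 5.22% of all genes tested. The same held for 1 of the 18 targets of FOXA, C/EBP and Onecut factors, and for no gene of the other 3 lists. Medians were -0.17 for the relatives, 0.23 for other liver factors, 0.15 for HNF4A targets, 0.03 for targets of FOXA, C/EBP and Onecut factors and -0.36 for acute-phase genes, against 0.01 over all genes. Apcs gave 6.66, with an adjusted p of 0.94 and overlapping libraries. For AF_MNA against PF, 477 of 12276 genes (3.89%) were called. From the 5 lists these were Xbp1 (log2 ratio -1.24), a factor of the unfolded protein response, Atf5 (-1.0), Cyp7a1 (-2.1) and Serpina1e (-2.73), all lower in every AF_MNA library than in every PF library and none past adjustment, with adjusted p from 0.171 to 0.228.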

How the data were processed

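Liver RNA was depleted of ribosomal RNA and sequenced as strand-specific paired-end libraries, 3 per group. The FPKM values of genes and lncRNA transcripts were made by the authors with StringTie 1.3.4 (per the submitters' notes) on transcripts merged over the libraries, so that neighbouring genes can share an entry. The deposited coverage signal of lncRNA transcripts and the count of back-splice junction reads are the authors' own, without scaling. The setting for strand at counting and the aligner's role are not given in the sources used here. Groups were taken from the labels, and 0 per-sample columns lacked a sample.

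Gene models were taken from GENCODE M21 (GRCm38). Genes averaging 0.5 FPKM or more, and lncRNA transcripts averaging 0.1 FPKM or more, in the 6 libraries of a comparison entered a fit of log2(FPKM + 1) with limma 3.58.1 in R 4.3.3 (intensity trend, two-sided, Benjamini-Hochberg adjustment over all features tested), after a test on simulated data. p-values measure only the spread between these samples. In 141 entries with all transcripts at hand, 92.0% of 648 gene values of at least 1 FPKM lay within 1% of the length-weighted transcript sum over the exon bases. The 8 genes and the lists were chosen with earlier results of these data known, so that the 8 genes were described with no test. Named were, from each list, called genes (at most 6) and up to 3 abundant ones, lncRNA transcripts within 20 kb and the 3 most alike genes. Python 3.11.15 with pandas 2.3.3 and matplotlib 3.10.9 was used.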

Additional observations from a re-analysis of the deposited data

How the results depend on the processing

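Precision rests on 3 libraries per group, no gene counts were used, and near-zero FPKM values cannot be told from failed estimates. With the sum of its transcripts in place of the gene entry, the log2 ratio of Hnf4aos reversed in all 3 comparisons, to 0.84 for AF against PF, -1.38 for AF_MNA against AF and -0.55 for AF_MNA against PF. The entry's own construction, with Fitm2 inside it, differs between these values. Without the filter on low values, 1183, 676 and 1105 genes were called for AF against PF, AF_MNA against AF and AF_MNA against PF, in place of 527, 242 and 477. For lncRNA transcripts, a fit of all 9 libraries called 744 (AF against PF, 453 in the main analysis) and 624 (AF_MNA against AF, 345), and a pseudocount of 0.1 FPKM called 598 of the latter. List genes called for AF_MNA against AF numbered 0, and 1 with all 9 libraries in the fit. The numbers of replicates did not pair the libraries (correlations of deviations from -0.0802 to 0.0615), and a replicate block called 2 list genes for AF_MNA against AF, 562 genes for AF against PF and 260 for AF_MNA against AF. Leaving out each library gave 516 to 764, 211 to 367 (the highest without AF replicate 3) and 467 to 545 genes for these comparisons, 349 to 562 and 261 to 423 lncRNA transcripts, 5 to 10 (main 8, fewest without PF replicate 3) and 0 to 2 list genes, and 1 to 4, 2 to 4 and 0 to 3 of the 8 genes without overlap, more being possible with fewer libraries. Scaling each library to the same median over features above 0 in every library left the sign of all ratios of the 8 genes but that of Hnf4a for AF_MNA against AF (0.03 and -0.01). Of 144 ratios of the 8 genes on leaving out a library, 14 moved by more than the within-group SD, among them those of Cebpb, Foxa1, Foxa2, Foxa3 and Onecut1.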

Other observations

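Some values set the libraries apart within groups, and the genes named here were chosen after their values were seen. The acute-phase gene Saa1 read 184 FPKM in PF replicate 1 and 214 FPKM in AF replicate 2, and 42.8 FPKM or less in the other 7 libraries, and Lcn2 read 39.3 and 133 FPKM in those libraries. In PF and in AF the same libraries held the highest Hnf4a of their group (56.3 and 69.4 FPKM) and the lowest sum of Hnf4aos transcripts (2.19 and 4.75 FPKM). In AF_MNA, replicate 2 likewise had the highest Saa1 (42.8 FPKM), the highest Hnf4a (58.3 FPKM) and the lowest transcript sum (3.19 FPKM), but replicate 1 was close to it in Saa1 (42.0 FPKM) and replicate 3 in Hnf4a (57.3 FPKM). Other acute-phase genes were divided in AF_MNA. Lcn2 (17.9, 14.8 and 10.96 FPKM) and Saa2 (17.3, 14.0 and 0.66 FPKM) were highest in replicate 1, and Hp (53.9, 87.5 and 289 FPKM) in replicate 3. Hpx (940, 1322 and 1113 FPKM), Itih4 (527, 547 and 395 FPKM), Itih3, Fga, Fgb and Fgg were highest in replicate 2, as Saa1 was. With 3 libraries per group this is a description, with no test. The Cebpb entry was the lowest of its group in PF replicate 1 (0.03 FPKM) and AF replicate 2 (0.61 FPKM) and the highest in AF_MNA replicate 2 (6.54 FPKM).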
